A study of Homo sapiens with 16 samples.

Results

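YAP1 and its paralogue TAZ, the TEAD1 and TEAD4 factors they bind, and 6 genes known as their direct targets were followed across siYES1 and siNS libraries of a pair of breast cancer cell lines. The 10 genes were taken by symbol from the 58735 gene IDs of the deposited count tables: YAP1, WWTR1 (the gene of TAZ), TEAD1, TEAD4, CYR61, CTGF, ANKRD1, AMOTL2, LATS2 and AXL. All 10 passed the filter on low counts in both lines. The study transfected SUM159PT and MDA-MB-231 cells, 2 lines labelled triple negative breast cancer, with an siRNA against YES1, a kinase of the Src family, or with a non-targeting siRNA. Its title names centrosome homeostasis, chromosomal stability and therapeutic response as the interest in YES1. Polyadenylated RNA was sequenced 48 h after transfection.

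The groups were SUM159PT with siYES1, SUM159PT with siNS, MDA-MB-231 with siYES1 and MDA-MB-231 with siNS, each with 4 libraries. All 4 groups had a wild-type genotype in the labels and received Lipofectamine2000. In siNS cells the siRNA targeted firefly luciferase, a gene that human cells lack. How many siRNA sequences against YES1 were used is not given in the sources used here. The design text calls the 4 replicates of a group technical, so the p-values below measure only the spread between such samples. RNA was taken from whole cultures, and a change in the share of cells that express a gene cannot be told apart from a change in RNA per cell.

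YAP1 and TAZ are transcriptional coactivators without a DNA-binding domain of their own; they reach DNA through TEAD factors. The Hippo kinases MST1/2 and LATS1/2 phosphorylate both and so keep them in the cytoplasm, and kinases of the Src family, YES1 among them, are known to phosphorylate YAP1 on tyrosine. YAP1 owes its name (Yes-associated protein) to its binding to the YES1 protein. In breast cancer lines of the basal type the pathway is known for links to cell spreading, growth and drug response. Most of this control acts on protein location and stability, which the libraries did not measure.

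TEAD factors bind the core GGAATG on either strand, which reads CATTCC on the opposite one. The core and its reverse complement cannot cover the same bases. Copies on the same strand can share a base, and only matches that do not overlap were counted. RefSeq promoter windows of GRCh38.p14, which run from 250 bases before a gene start through 50 bases from it, were matched for 7 of the 10 genes. The 7 genes had 10 windows because AMOTL2, AXL and WWTR1 have 2 annotated starts each. TEAD1, TEAD4 and CYR61 had no window. The core was present in 6 of the 10 windows, 1 for each of 6 genes, against 14.03% of 35116 promoter windows of the same length (4928 windows). The 4 windows below are those of target genes whose RNA is described at length, read 5′ to 3′ on the gene's strand, with the core in capitals.
CTGF, chr6:131951323-131951622, minus strand: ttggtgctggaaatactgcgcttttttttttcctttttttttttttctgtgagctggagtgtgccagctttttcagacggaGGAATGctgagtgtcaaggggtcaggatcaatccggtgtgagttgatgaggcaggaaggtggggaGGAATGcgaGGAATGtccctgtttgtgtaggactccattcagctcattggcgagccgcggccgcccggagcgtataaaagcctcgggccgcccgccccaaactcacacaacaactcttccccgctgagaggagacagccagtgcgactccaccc
ANKRD1, chr10:90921038-90921337, minus strand: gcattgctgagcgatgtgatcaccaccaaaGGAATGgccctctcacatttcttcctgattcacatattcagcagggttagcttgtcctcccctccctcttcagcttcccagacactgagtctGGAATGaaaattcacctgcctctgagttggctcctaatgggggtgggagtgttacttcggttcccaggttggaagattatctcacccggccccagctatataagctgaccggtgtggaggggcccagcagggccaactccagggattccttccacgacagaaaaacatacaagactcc
AMOTL2, chr3:134374398-134374697, minus strand: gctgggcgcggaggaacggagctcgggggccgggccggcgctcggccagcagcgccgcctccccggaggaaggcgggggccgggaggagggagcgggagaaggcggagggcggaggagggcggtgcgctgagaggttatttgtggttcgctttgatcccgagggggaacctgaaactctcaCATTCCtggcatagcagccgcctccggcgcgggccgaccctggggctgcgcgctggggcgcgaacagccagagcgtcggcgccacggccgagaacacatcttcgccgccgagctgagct
LATS2, chr13:21061537-21061836, minus strand: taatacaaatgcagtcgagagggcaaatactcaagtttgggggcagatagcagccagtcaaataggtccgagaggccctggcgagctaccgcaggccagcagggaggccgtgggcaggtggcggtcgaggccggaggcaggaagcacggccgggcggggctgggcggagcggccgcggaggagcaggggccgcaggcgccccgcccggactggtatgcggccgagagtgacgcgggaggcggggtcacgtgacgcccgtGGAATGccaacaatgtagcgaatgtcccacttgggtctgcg

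The CTGF window held 3 cores on the gene's strand, starting 169, 104 and 95 bases before the gene start. At least 3 cores were found in 0.125% of all windows (44 of 35116). ANKRD1 held 2 cores, 220 and 128 bases before its start, and a count of at least 2 was found in 1.36% of windows. The ANKRD1 window was also the only one of the 10 with the AP-1 motif TGANTCA, 195 bases before the start, which 7.71% of all windows held on either strand. The AMOTL2 window shown above held a single core on the opposite strand, 69 bases before the start, and the LATS2 window held 1 that begins at base 10 from the start. YAP1 itself (chr11:102110197-102110496, plus strand) held 1 core 162 bases before its start. One of the AXL windows (chr19:41226505-41226804, plus strand) held 1 on the opposite strand 212 bases before the start. Neither WWTR1 window nor the other AMOTL2 and AXL windows held one. These matches describe letters in a window and not bound sites.

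**Figure D1:**
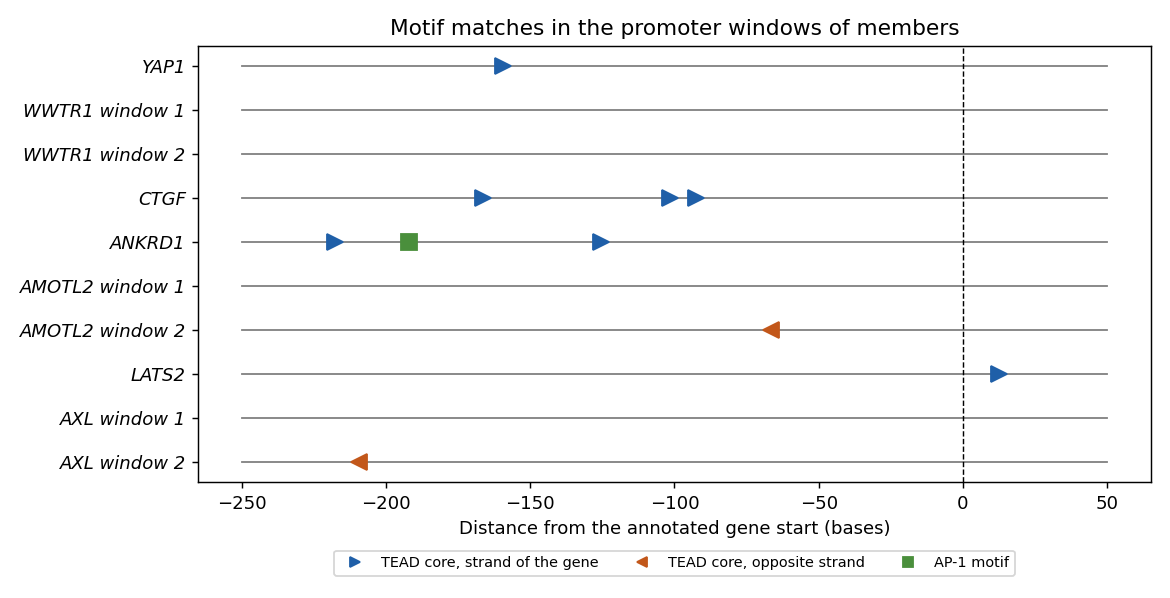
Positions of the TEAD core (both strands) and of the AP-1 motif in the 300-base RefSeq promoter windows of the 7 genes with a window, as bases from the gene start on the x axis. CTGF holds 3 TEAD cores and ANKRD1 2, and 4 of the 10 windows hold none.

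Library totals ran between 15680459 and 23451253 counts. YES1 itself had 15.8, 15.7, 19.4 and 17.9 CPM (counts scaled to a common library size, each line on its own scale) in siYES1 SUM159PT libraries, against 99.7, 150, 151 and 136 CPM in siNS libraries. The MDA-MB-231 libraries had YES1 at 13.5, 14.5, 14.3 and 12.7 CPM with siYES1, against 71.4, 57.1, 63.8 and 60.3 CPM with siNS. The receptor genes ESR1 and PGR reached at most 25 and 2 counts in any library, while ERBB2 lay between 46.9 and 126 CPM. Vimentin was high in every library (at least 413 CPM) and E-cadherin low (at most 1.17 CPM) in both lines. ZEB1 lay between 49.7 and 101 CPM. The epithelial genes KRT8 and KRT18 averaged 1130 and 430 CPM in siYES1 MDA-MB-231, against 837 and 348 CPM with siNS. In SUM159PT they averaged 177 and 62.0 CPM with siYES1, against 321 and 127 CPM with siNS. Both were called higher with siYES1 in MDA-MB-231, where the KRT18 groups overlapped, and lower in SUM159PT. EPCAM fell in MDA-MB-231 (12.8 against 23.5 CPM) and was at most 0.83 CPM in SUM159PT. Of the markers of other cell types, PTPRC of leukocytes had at most 16 counts in a library and was at 0 in all 4 siYES1 SUM159PT libraries, against between 0.53 and 0.92 CPM in siNS ones. In MDA-MB-231, PTPRC had between 0 and 0.19 CPM with siYES1 and between 0.34 and 0.77 CPM with siNS. PECAM1 of endothelium had between 0.27 and 0.48 CPM in siYES1 SUM159PT libraries and between 0.86 and 2.98 CPM in siNS ones. PECAM1 had between 2.44 and 4.19 CPM in siYES1 MDA-MB-231 libraries and between 4.33 and 9.14 CPM in siNS ones. Both markers were lower with siYES1 in both lines, and their part in the results was not tested. The column names of the SUM159PT libraries begin with S149, and their line is taken from the sample titles. In SUM159PT, siNS replicate 1 stood apart from the other 7 libraries on the second principal component, at 47.6, against between -6.20 and 13.7 for the 4 siYES1 libraries and between -32.9 and -11.1 for the other 3 siNS libraries. Values of the 10 genes whose call changes without that library are also given without it, as are several others.

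Among the 10 genes, 3 rose and 2 fell with siYES1 in SUM159PT (adjusted p under 0.05, edgeR's quasi-likelihood test), against a background of 36.8% of all tested genes called (17.7% higher and 19% lower). In MDA-MB-231, 7 rose and 2 fell, against a background of 52.4% called (24.9% higher and 27.5% lower). Of all called genes in SUM159PT, 48.2% were higher, but 25.0% when libraries were scaled to total counts, and in MDA-MB-231 47.6% were higher, but 37.8% in the joint fit. YAP1, TEAD1 and CYR61 rose in both lines. CTGF fell in SUM159PT and rose in MDA-MB-231, and no gene of the 10 fell in both. Calls in both lines were not counted over all tested genes, so these counts, and those of the lists below, have no background. Without siNS replicate 1, 3 genes rose and 2 fell in SUM159PT as well, with YAP1 at 0.56, TEAD1 at 0.71 and CYR61 at 0.49 on the log2 scale. The median log2 fold change of the 10 was 0.15 in SUM159PT, beside -0.03 over all tested genes, and 0.42 in MDA-MB-231, beside 0.00.

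**Figure D2:**
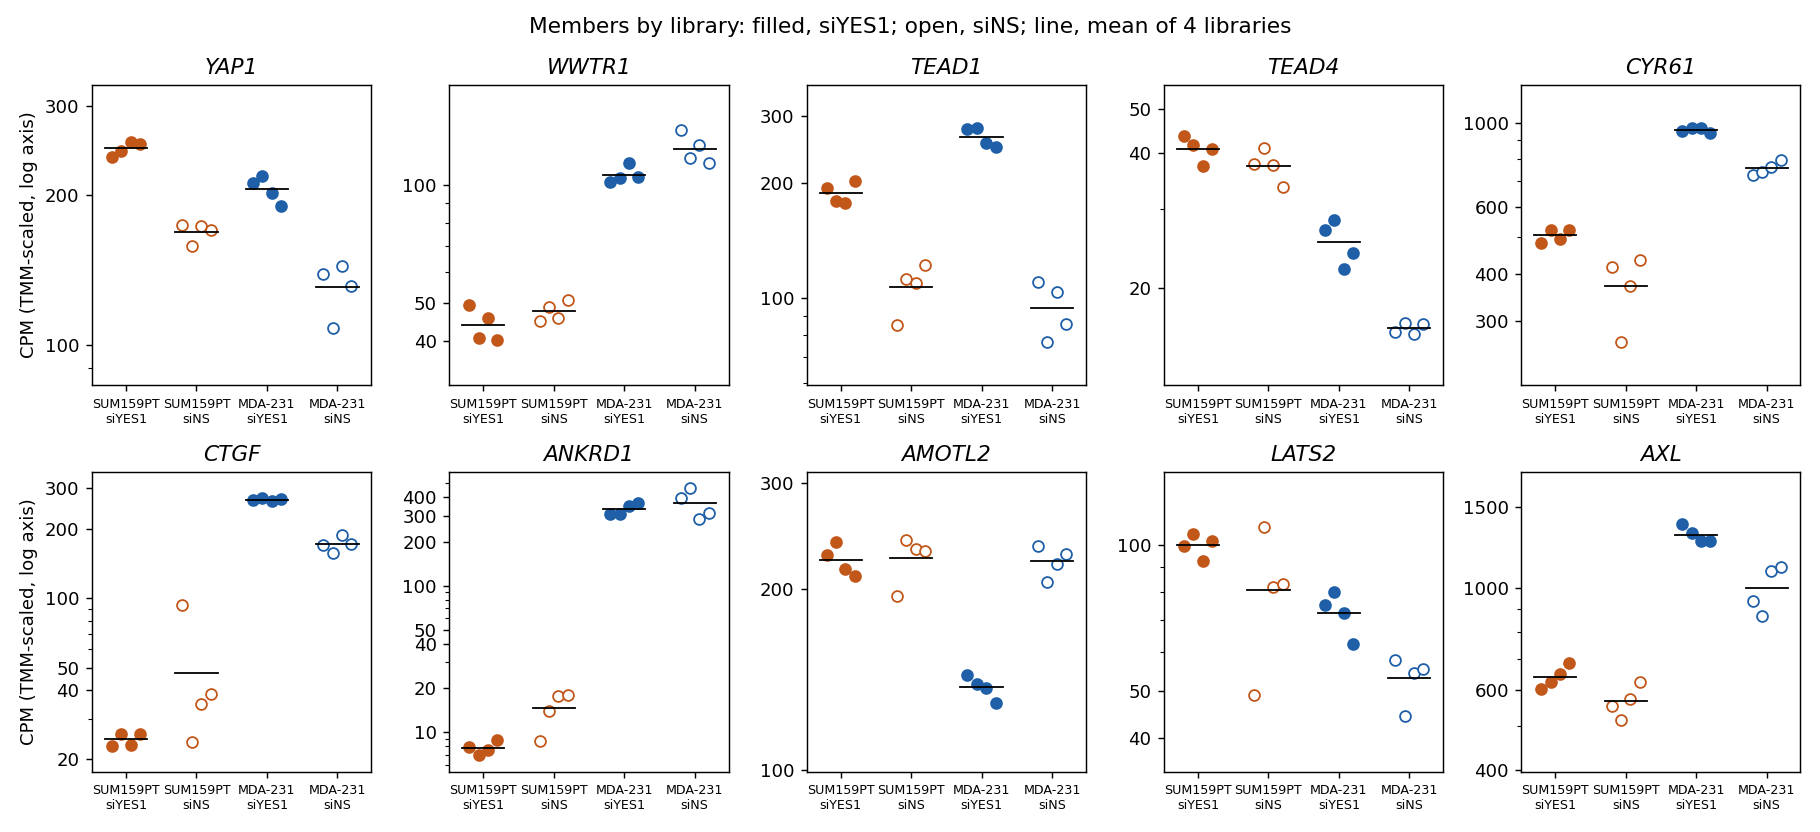
CPM (counts scaled to library size, log axis) of the 10 genes in each of the 16 libraries, siYES1 as filled and siNS as open points, with SUM159PT left of MDA-MB-231. YAP1 and TEAD1 are higher in every siYES1 library than in any siNS library of the same line, and CTGF lies lower in siYES1 than most siNS libraries in SUM159PT but higher in MDA-MB-231.

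YAP1 (ENSG00000137693, GRCh38 chromosome 11, 102110461 to 102233423, plus strand) is the pathway's main coactivator. The SUM159PT libraries had 238, 244, 255 and 253 CPM with siYES1, against 174, 158, 173 and 170 CPM with siNS. Its level in MDA-MB-231 was 211, 218, 202 and 189 CPM with siYES1, against 139, 108, 144 and 131 CPM with siNS. All 4 siYES1 libraries lay above all 4 siNS libraries in both lines. The log2 fold change was 0.55 ± 0.07 (SE, n = 4 per group) in SUM159PT, with an edgeR adjusted p of 4.21e-05. It was 0.65 ± 0.09 in MDA-MB-231, with an edgeR adjusted p of 9.42e-06.

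WWTR1 (ENSG00000018408, chromosome 3, 149517235 to 149736714, minus strand) encodes TAZ, the second coactivator. Its level in SUM159PT was 49.4, 40.9, 45.9 and 40.3 CPM with siYES1, against 45.1, 49.0, 45.9 and 51.1 CPM with siNS. In MDA-MB-231 it had 102, 105, 114 and 105 CPM with siYES1, against 138, 117, 126 and 113 CPM with siNS. The groups overlapped in both lines. It did not pass the test in SUM159PT, at -0.11 ± 0.10 with an edgeR adjusted p of 0.384, but did when libraries were scaled to total counts (-0.28, edgeR adjusted p = 0.0334). It fell in MDA-MB-231, by 0.22 on the log2 scale (SE 0.08, edgeR adjusted p = 0.0241). That call was lost when any 1 of 5 MDA-MB-231 libraries was left out (siNS replicate 1 or 3, siYES1 replicate 1, 2 or 4; edgeR adjusted p up to 0.0783), and without the filter on low counts (0.0541).

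Set per kilobase of exon on a scale shared by all 16 libraries, YAP1 was the more abundant coactivator in every group. It averaged 42.4 CPM per kb in siYES1 SUM159PT cells and 28.1 in siNS SUM159PT cells, against 5.66 and 5.95 for WWTR1. In MDA-MB-231 it averaged 30.0 with siYES1 and 19.9 with siNS, and WWTR1 averaged 11.6 with siYES1 and 14.1 with siNS. WWTR1 made up 11.8% ± 1.22 of the summed level in SUM159PT with siYES1 and 17.5% ± 1.299 with siNS (SD, n = 4). In MDA-MB-231 its share was 27.9% ± 1.74 with siYES1 and 41.6% ± 2.60 with siNS. The 4 groups' shares did not overlap, with the lowest in siYES1 SUM159PT and the highest in siNS MDA-MB-231. These shares are descriptions without a test. They depend on the length of all annotated exons of a gene, 6296 bases for YAP1 and 8413 for WWTR1. Before division by length, YAP1 and WWTR1 were close in siNS MDA-MB-231 cells, at means of 131 and 124 CPM. The summed level was 48.1 CPM per kb with siYES1 and 34.0 with siNS in SUM159PT, and 41.6 with siYES1 and 34.0 with siNS in MDA-MB-231.

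TEAD1 (ENSG00000187079, chromosome 11, 12674591 to 12944483, plus strand), a DNA-binding partner of both coactivators, had the largest rise of the 10 genes in both lines. In SUM159PT it had 194, 180, 177 and 203 CPM with siYES1, against 85.0, 112, 110 and 122 CPM with siNS. The MDA-MB-231 libraries had 278, 279, 255 and 250 CPM with siYES1, against 110, 77.0, 104 and 85.5 CPM with siNS. Neither pair of groups overlapped. TEAD1 rose by 0.81 ± 0.10 on the log2 scale in SUM159PT (edgeR adjusted p = 5.93e-05) and by 1.49 ± 0.10 in MDA-MB-231 (4.44e-09). The effect in SUM159PT minus that in MDA-MB-231 was -0.58 ± 0.16 in a joint fit of all 16 libraries, which has its own scaling (edgeR adjusted p = 0.00855).

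TEAD4 (ENSG00000197905, chromosome 12, 2959330 to 3040673, plus strand), a paralogue of TEAD1, rose in MDA-MB-231. It had 27.0, 28.3, 22.1 and 24.0 CPM with siYES1 in MDA-MB-231, against 16.004, 16.8, 15.9 and 16.7 CPM with siNS, with no overlap. The log2 fold change was 0.64 ± 0.10 (edgeR adjusted p = 4.42e-05). The SUM159PT libraries had 43.6, 41.7, 37.5 and 40.9 CPM with siYES1, against 37.7, 41.0, 37.6 and 33.6 CPM with siNS, and these overlapped (0.13 ± 0.10, edgeR adjusted p = 0.336). The difference between the lines was -0.41 ± 0.14 (edgeR adjusted p = 0.0387), a call that was lost in 11 of the 16 fits without 1 library, with adjusted p up to 0.103.

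The TEAD family differed in makeup between the lines and with siYES1. TEAD1 made up 31.4% of the summed TEAD1 to TEAD4 level per kb in SUM159PT with siYES1 and 21.8% with siNS. In MDA-MB-231 it made up 34.1% with siYES1 and 15.03% with siNS. TEAD3 was the largest share in MDA-MB-231, at 41.6% with siYES1 and 54.1% with siNS, and TEAD4 held 14.7% with siYES1 and 11.8% with siNS there. In siNS SUM159PT cells TEAD4 was the largest, at 34.6%, while with siYES1 TEAD1 and TEAD4 were near each other, at 31.4% and 30.9%. TEAD2, a paralogue outside the 10 genes, had 22.0, 21.1, 19.8 and 23.0 CPM in MDA-MB-231 with siYES1, against 34.3, 38.0, 34.8 and 31.7 CPM with siNS. It fell by 0.69 on the log2 scale there (SE 0.09, edgeR adjusted p = 6.22e-06) while TEAD1 and TEAD4 rose. TEAD2 did not pass the test in SUM159PT (-0.04 ± 0.14, edgeR adjusted p = 0.864), and its effect differed between the lines by 0.76 (edgeR adjusted p = 0.00196).

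**Figure D3:**
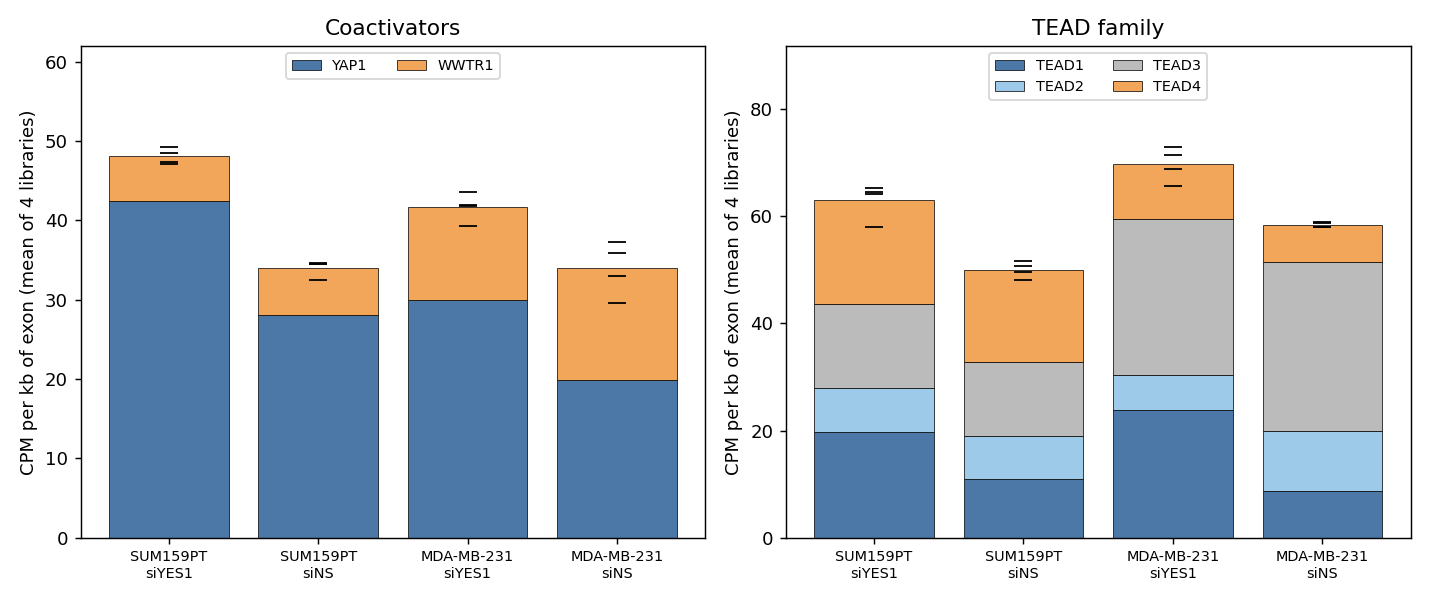
Mean level in CPM per kilobase of exon of YAP1 and WWTR1 (stacked, left) and of TEAD1 to TEAD4 (stacked, right) in the 4 groups, with ticks for the total of each library. The summed coactivator level is 48.1 with siYES1 and 34.0 with siNS in SUM159PT, and the TEAD1 segment is larger with siYES1 in both lines.

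Of the target genes, CYR61 and CTGF encode secreted matricellular proteins of the CCN family and are the readouts most often used for YAP and TAZ activity. CYR61 (ENSG00000142871, chromosome 1, 85580761 to 85583962, plus strand) had 483, 521, 495 and 521 CPM with siYES1 in SUM159PT, against 417, 265, 372 and 435 CPM with siNS. Its level in MDA-MB-231 was 951, 967, 966 and 940 CPM with siYES1, against 729, 741, 764 and 796 CPM with siNS. The siYES1 libraries lay above the siNS libraries in both lines, and in SUM159PT the siNS libraries were the more spread (SD 76.3 CPM, against 19.4 CPM with siYES1). CYR61 rose by 0.44 ± 0.12 in SUM159PT (edgeR adjusted p = 0.0131) and by 0.34 ± 0.06 in MDA-MB-231 (0.000345). Scaled to total counts, the SUM159PT change was 0.27 with an edgeR adjusted p of 0.129. That scaling moved the median of all tested SUM159PT genes to -0.20, against -0.03.

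CTGF (ENSG00000118523, chromosome 6, 131948176 to 131951373, minus strand) went in opposite directions in the lines. Its level in SUM159PT was 22.9, 25.8, 23.1 and 25.9 CPM with siYES1, against 93.4, 23.7, 34.8 and 38.6 CPM with siNS. The siYES1 libraries were close together, siNS replicate 1 was far above all others, and siNS replicate 2 lay within the siYES1 range. In MDA-MB-231 it had 267, 273, 264 and 270 CPM with siYES1, against 170, 158, 189 and 173 CPM with siNS, and there every siYES1 library was the higher. CTGF fell by 0.96 on the log2 scale in SUM159PT (SE 0.31, edgeR adjusted p = 0.0295), and without siNS replicate 1 it fell by 0.42 (SE 0.13, edgeR adjusted p = 0.0164). The SUM159PT call was lost without any 1 of the siYES1 libraries (edgeR adjusted p between 0.0611 and 0.0735) and in DESeq2 (0.0606).

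In MDA-MB-231, CTGF rose by 0.64 ± 0.07 (edgeR adjusted p = 1.14e-06), and the joint fit with SUM159PT gave 0.58 with an edgeR adjusted p of 0.0522. The effect in SUM159PT minus that in MDA-MB-231 was -1.50 ± 0.34 (edgeR adjusted p = 0.00232). It was called in all 16 fits without 1 library and was -1.02 (9.87e-06) without SUM159PT siNS replicate 1. CTGF, whose window held the 3 TEAD cores printed above, was the only one of the 10 genes called in opposite directions in the lines.

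ANKRD1 (ENSG00000148677, chromosome 10, 90912096 to 90921276, minus strand), a cardiac ankyrin repeat protein and a widely used YAP target, was far lower in SUM159PT than in MDA-MB-231. In SUM159PT it had 7.92, 6.96, 7.52 and 8.79 CPM with siYES1, against 8.65, 13.9, 17.7 and 17.8 CPM with siNS. Only siNS replicate 1 lay within the siYES1 range. ANKRD1 fell by 0.90 there (SE 0.21, edgeR adjusted p = 0.00504), and by 1.09 without siNS replicate 1 (8.45e-06). The MDA-MB-231 libraries had 308, 309, 349 and 368 CPM with siYES1, against 399, 461, 284 and 315 CPM with siNS, which overlapped (-0.13 ± 0.12, edgeR adjusted p = 0.389). The difference between lines was -0.67 ± 0.24 (edgeR adjusted p = 0.0450), and this call was lost in 11 of the 16 fits without 1 library, with adjusted p up to 0.108. Without SUM159PT siNS replicate 1 it was -0.92 (edgeR adjusted p = 0.000683). In SUM159PT, CYR61 rose while CTGF and ANKRD1 fell.

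AXL (ENSG00000167601, chromosome 19, 41219203 to 41261766, plus strand) is a receptor tyrosine kinase. Its level in MDA-MB-231 was 1381, 1319, 1268 and 1266 CPM with siYES1, against 939, 867, 1087 and 1110.5 CPM with siNS, with no overlap. AXL rose by 0.39 ± 0.08 there (edgeR adjusted p = 0.000878). The SUM159PT libraries had 602, 623, 650 and 686 CPM with siYES1, against 551, 516, 574 and 623 CPM with siNS. The SUM159PT groups overlapped and the change did not pass the test (0.18 ± 0.07, edgeR adjusted p = 0.0784). It passed without siNS replicate 4 (0.0391) and in the joint fit (0.0342).

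AMOTL2 and LATS2 are targets that also act back on the pathway. AMOTL2 (ENSG00000114019, chromosome 3, 134355874 to 134375479, minus strand) is an angiomotin-like scaffold that binds YAP1 and holds it back. In MDA-MB-231 it had 144, 139, 137 and 129 CPM with siYES1, against 236, 206, 220 and 228 CPM with siNS, so every siYES1 library was the lower. It fell by 0.70 there (SE 0.07, edgeR adjusted p = 4.81e-07). Its level in SUM159PT was 228, 239, 216 and 210 CPM with siYES1, against 195, 241, 233 and 231 CPM with siNS, which overlapped (-0.01 ± 0.08, edgeR adjusted p = 0.931, and -0.08 without siNS replicate 1). The difference between the lines was 0.78 ± 0.11 (edgeR adjusted p = 2.16e-05), and it was called in all 16 fits without 1 library.

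LATS2 (ENSG00000150457, chromosome 13, 20973032 to 21061547, minus strand) is a Hippo kinase that phosphorylates YAP1 and TAZ. The MDA-MB-231 libraries had 75.0, 79.9, 72.4 and 62.5 CPM with siYES1, against 57.8, 44.3, 54.6 and 55.5 CPM with siNS. Every siYES1 library was the higher, and LATS2 rose by 0.45 ± 0.10 (edgeR adjusted p = 0.000912; 0.0501 in the joint fit). In SUM159PT it had 99.2, 105, 92.3 and 102 CPM with siYES1, against 49.0, 109, 81.7 and 82.9 CPM with siNS. The siNS libraries spanned the siYES1 range and the change did not pass the test (0.31 ± 0.17, edgeR adjusted p = 0.184). The change was 0.12 without siNS replicate 1 and passed without siNS replicate 2 (0.48, edgeR adjusted p = 0.0266) and without the filter on low counts (0.00851).

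**Figure D4:**
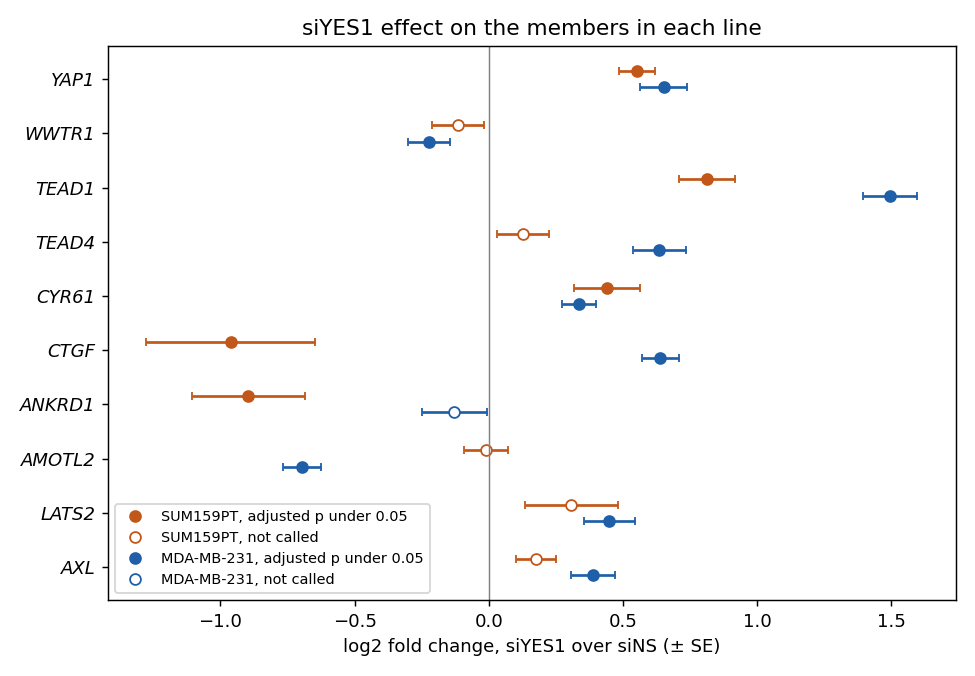
Log2 fold change of siYES1 over siNS (± SE) for the 10 genes, SUM159PT above MDA-MB-231 for each gene, filled where the edgeR adjusted p is under 0.05. TEAD1 is the highest in both lines, and CTGF is at -0.96 in SUM159PT and 0.64 in MDA-MB-231.

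The difference between lines was called for 5 of the 10 genes, against a background of 24.3% of tested genes. Of all called differences 63.5% were positive, but 33.0% when scaled to total counts and 49.0% with TMM factors within each line, an alternative added after the data were seen. It was positive for 1 gene, AMOTL2 (background 15.4%), and negative for 4, TEAD1, TEAD4, CTGF and ANKRD1 (background 8.85%). For the other 5 the test was not passed: YAP1 (-0.0013, edgeR adjusted p = 1.00), WWTR1 (0.21, 0.242), CYR61 (0.20, 0.327), LATS2 (-0.04, 0.933, and -0.28, 0.165 without SUM159PT siNS replicate 1) and AXL (-0.11, 0.521, and -0.19, 0.230 without it). The AXL difference passed when libraries were scaled to total counts (-0.33, edgeR adjusted p = 0.0376). A difference that misses the threshold does not show that the lines responded alike. The knockdown itself also differed: YES1 was at -2.96 ± 0.14 in SUM159PT and -2.20 ± 0.09 in MDA-MB-231. Its difference between the lines was called as well (-0.66, edgeR adjusted p = 0.00657). In siNS cells YES1 was higher in SUM159PT, by 1.21 on the log2 scale. The part of this in the differences of the 10 genes was not tested. Groups of libraries did not overlap for 3 genes in SUM159PT (YAP1, TEAD1 and CYR61), against 36.8% of all tested genes. In MDA-MB-231 they did not overlap for 8 genes (all but WWTR1 and ANKRD1), against 47.1%.

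Between siNS cells, 9 of the 10 genes differed between SUM159PT and MDA-MB-231, against a background of 77% of tested genes called (38% higher and 39% lower). The libraries of the lines did not overlap for 7 of the 10 (all but TEAD1, AMOTL2 and LATS2), against 66.8% of tested genes. YAP1 (0.50), TEAD1 (0.32), TEAD4 (1.33) and LATS2 (0.73) were higher in siNS SUM159PT cells, as log2 fold changes with edgeR adjusted p of 9.24e-06, 0.0129, 7.15e-11 and 0.000182. The TEAD1 call was lost without MDA-MB-231 siNS replicate 2 (0.0682) or SUM159PT siNS replicate 4 (0.0606). WWTR1 (-1.24), CYR61 (-0.90), CTGF (-1.73), ANKRD1 (-4.52) and AXL (-0.69) were lower in siNS SUM159PT cells. AMOTL2 did not pass the test (0.15, edgeR adjusted p = 0.0936), but it did without SUM159PT siNS replicate 1 (0.23, 0.00431) and among genes of at least 1 mean CPM (0.17, 0.0479). CTGF was at -2.26 without SUM159PT siNS replicate 1. The coactivators thus went opposite ways in siNS SUM159PT cells, with YAP1 higher and WWTR1 lower, and their summed level was 34.0 CPM per kb in siNS cells of both lines. TEAD1 and TEAD4 were higher, but TEAD3 and the summed TEAD1 to TEAD4 level per kb were lower in every siNS SUM159PT library than in any siNS MDA-MB-231 library. Of the targets, CYR61, CTGF, ANKRD1 and AXL were lower and LATS2 was higher.

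On the scale per kb, ANKRD1 averaged 4.25 in siYES1 SUM159PT cells, 7.68 in siNS SUM159PT cells, 155 in siYES1 MDA-MB-231 cells and 176.5 in siNS MDA-MB-231 cells. CYR61 was the highest of the 10 per kb in all 4 groups, at 222 CPM per kb in siYES1 SUM159PT and 159 in siNS SUM159PT, and at 359 in siYES1 and 295.5 in siNS MDA-MB-231. AXL came second in each, at 134 and 115 in SUM159PT with siYES1 and siNS. In MDA-MB-231 it averaged 234 with siYES1 and 186 with siNS. In siNS MDA-MB-231 cells AXL and ANKRD1 (186 and 176.5) were close in that order.

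The rest of the pathway was taken as lists. Of 18 tested Hippo kinases and upstream regulators in SUM159PT, 10 rose and 2 fell, beside 17.7% higher and 19% lower over all tested genes. Their median log2 fold change was 0.26, beside -0.03 over all tested genes. PTPN14 (0.79 ± 0.09), a phosphatase that binds YAP1, MOB1A (0.69 ± 0.08), the LATS kinases' activating subunit, and FRMD6 (0.67 ± 0.08), a FERM-domain scaffold, rose the most. WWC3 (-0.72 ± 0.10), a scaffold of the KIBRA family, and TAOK2 (-0.64 ± 0.10), a kinase upstream of MST, fell. Scaled to total counts, the calls were 5 higher and 3 lower (median 0.09, beside -0.20 over all genes). Of all genes called under that scaling, 25.0% were higher. In MDA-MB-231, 5 of 17 rose and 3 fell, beside 24.9% higher and 27.5% lower over all tested genes, and the median was 0.08 beside 0.00. There MOB1A rose by 1.19 ± 0.09, with 175, 169, 188 and 173 CPM in siYES1 libraries, against 87.6, 77.3, 79.8 and 64.0 CPM in siNS libraries. MOB1A, PTPN14 and FRMD6 were the 3 genes of this list that rose in both lines, and WWC3 fell in both. MAP4K4 rose in SUM159PT (mean 194 CPM with siYES1, against 152 CPM with siNS) and fell in MDA-MB-231 (-0.32 ± 0.07). Its effect differed between the lines by 0.77 (edgeR adjusted p = 4.59e-06). MOB1B fell in MDA-MB-231 as well (-0.41 ± 0.08).

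NF2, the upstream tumour suppressor Merlin, did not pass the test in either line (-0.21, edgeR adjusted p = 0.120 in SUM159PT and 0.05, 0.753 in MDA-MB-231). It was far apart between the lines, between 73.2 and 90.1 CPM in siYES1 and between 82.0 and 110 CPM in siNS SUM159PT libraries. In MDA-MB-231, a line known to be deficient in Merlin, it lay between 9.08 and 12.5 CPM with siYES1 and between 9.09 and 11.9 CPM with siNS. The siNS comparison of SUM159PT over MDA-MB-231 gave 3.32 ± 0.12 on the log2 scale (edgeR adjusted p = 1.28e-16).

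Among 4 tested TEAD paralogues and VGLL cofactors in each line, VGLL3, a TEAD-binding cofactor that shares the surface used by YAP1, rose in SUM159PT (0.75 ± 0.10, edgeR adjusted p = 0.000125). It had 184, 179, 184 and 184 CPM with siYES1, against 84.9, 107, 120 and 124 CPM with siNS. In MDA-MB-231 VGLL3 was at most 6.25 CPM in any library and did not pass the test (0.27, edgeR adjusted p = 0.219). The median of the 4 was 0.06 in SUM159PT, where none fell, and 0.06 in MDA-MB-231, where TEAD2 alone fell and none rose. Over all tested genes 36.8% were called in SUM159PT and 52.4% in MDA-MB-231. VGLL1 had 0 counts in all 16 libraries.

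Of 16 further YAP and TAZ target genes, 8 were called higher and 3 lower in SUM159PT, beside 17.7% and 19% of all tested genes, at a list median of 0.33 beside -0.03. F3, which encodes tissue factor, had 209, 188, 197 and 192 CPM with siYES1 in SUM159PT, against 86.1, 89.9, 91.1 and 82.6 CPM with siNS. F3 rose by 1.17 ± 0.07 (edgeR adjusted p = 1.67e-07), PTPN14, which is on both lists, by 0.79 and NT5E, the ecto-5′-nucleotidase CD73, by 0.78. FJX1 (-0.91 ± 0.23), RBMS3 (-0.80), an RNA-binding protein, and ARHGEF17 (-0.70) fell. The FJX1 groups overlapped, between 46.7 and 56.6 CPM with siYES1 and between 55.8 and 154 CPM with siNS. With libraries scaled to total counts the calls of the list were 5 higher and 4 lower (median 0.17, beside -0.20 over all genes). Over all 14469 tested genes that scaling gave 1394 higher and 4173 lower. Leaving out siNS replicate 1 gave 8 higher and 4 lower of the list (median 0.17, beside -0.02 over all genes).

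In MDA-MB-231, 5 of the 16 rose and 5 fell, beside 24.9% and 27.5% of all tested genes, with a median of -0.02 beside 0.00. IGFBP3 (0.97), an IGF-binding protein, NT5E (0.70) and GADD45A (0.54), a stress-response gene, were the strongest that rose. MYOF (-0.64), the membrane repair protein myoferlin, DOCK5 (-0.56), a Rac exchange factor, and CCDC80 (-0.49), a matrix protein, fell. NT5E, PTPN14 and GADD45A rose in both lines, RBMS3 and ARHGEF17 fell in both, and CCDC80 and DOCK5 rose in SUM159PT and fell in MDA-MB-231. The difference between the lines was called for F3 (1.43, edgeR adjusted p = 1.05e-08), which was not called in MDA-MB-231. It was also called for CCDC80 (1.304, 4.01e-08), with 279, 293, 314 and 321 CPM in siYES1 SUM159PT libraries, against 157, 178, 190 and 209 CPM in siNS ones.

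**Figure D5:**
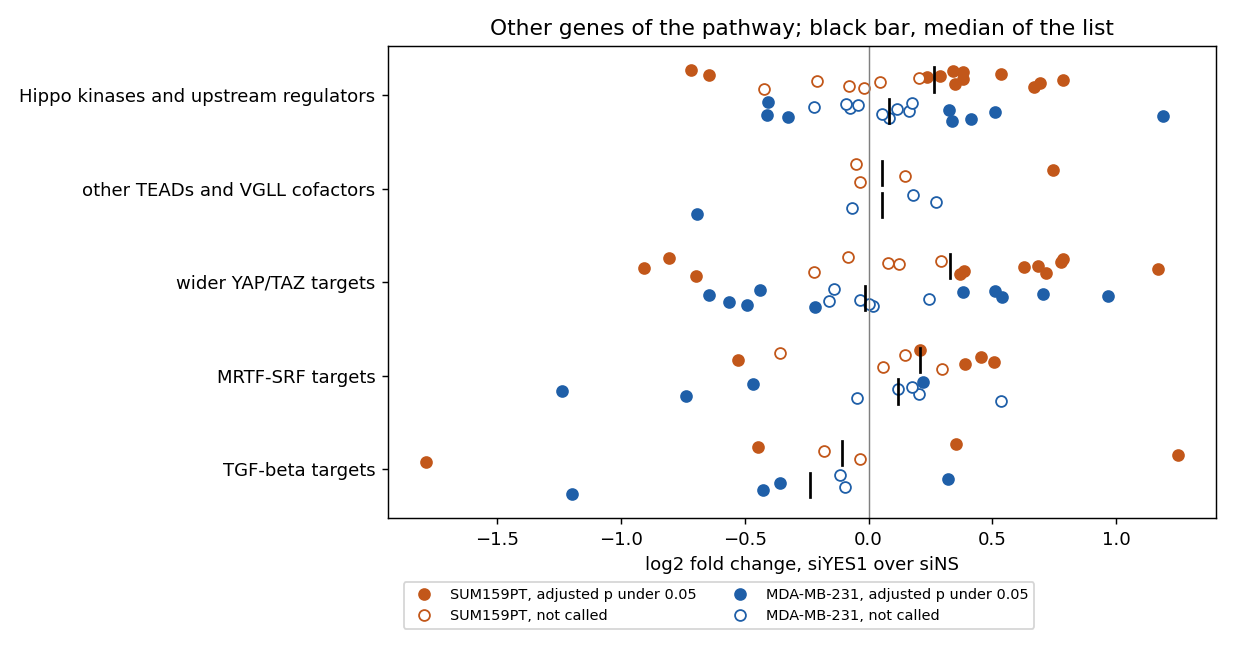
Log2 fold change of siYES1 over siNS for every tested gene of 5 lists of the pathway and its neighbours in each line, with a black bar at the list's median. The wider target list has a median of 0.33 in SUM159PT and -0.02 in MDA-MB-231, with genes on both sides of 0 in each line.

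The genes whose level ran most like a member's over the 16 libraries were found by Pearson's r of log2 CPM among 10272 tested genes. For YAP1 these were FAM72D (0.973), ATP11A (0.973) and TOP2A (0.971), of which FAM72D has near-identical copies that counting may split. For WWTR1 they were MADD (0.989), MORC4 (0.987) and LIPH (0.986). For CTGF they were CHAF1A (0.992), MED22 (0.992) and HNRNPM (0.991), and for CYR61 ZKSCAN3 (0.975), PDGFC (0.970) and MYBL1 (0.970). The 16 points come from 2 lines and 4 groups and share those differences, so the r values are descriptions.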

How the data were processed

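Whole-number counts per gene were deposited by the authors in 1 table per line, with 8 libraries each and no column of another sample. Per the submitters' processing notes, the tools named are HISAT2 2.0.5 and featureCounts 1.5.0-p3, and the build is hg38. The sources used here do not name the annotation or the strand setting of the counting, and reads of overlapping or antisense genes may have been mixed. Gene IDs were matched to GENCODE 29 (58735 of 58735) and promoter windows to RefSeq.

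Libraries were grouped by their titles. Each line was fitted with edgeR 4.0.16 in R 4.3.3 (TMM scaling, its low-count filter, quasi-likelihood test, Benjamini-Hochberg adjustment over all genes tested, threshold 0.05). All 16 libraries were fitted jointly for the difference between lines and for the siNS comparison. SE is the log2 fold change divided by the square root of F. CPM came from each line's own fit, and values per kb from the joint scaling and the exon length of the gene. Depth was 15680459 to 23451253 counts per library, and the spread between libraries of a group exceeded counting noise and sets the precision of the tests. Scripts were tested on simulated data. Within-group pairs of libraries differed by more than sampling noise, so none was counted as 1 sample with another.

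The 10 members and the gene lists were chosen with earlier results of these data known. The text names all 10 members and YES1. From each other list it names up to 3 called genes per direction and line with the largest change among those of at least 5 mean CPM, and values beyond that were chosen after they were seen. It also names the 3 genes most like YAP1, WWTR1, CTGF and CYR61. Alternatives were RLE and total-count scaling, 2 other filters on low counts, DESeq2 1.42.0, a replicate block, each library left out, a joint fit, and TMM factors within each line, the last added after the data were seen. One gene that this rule picks is not reported here.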

Additional observations from a re-analysis of the deposited data

Results flagged for a closer look

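The siYES1 effect in SUM159PT minus that in MDA-MB-231 passed the edgeR test for 5 of the 10 genes. On the log2 scale it was -0.58 for TEAD1, -0.41 for TEAD4, -1.50 for CTGF, -0.67 for ANKRD1 and 0.78 for AMOTL2. TEAD1, CTGF and AMOTL2 kept this call in every fit without 1 library, while TEAD4 and ANKRD1 lost it in 11 of 16 fits each. Among the SUM159PT libraries CTGF was highest in siNS replicate 1, at 93.4 CPM, but none of the 40 groups of 4 libraries held a value far enough from the others to pass Dixon's limit.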

How the results depend on the processing

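The counts of genes called stayed within 1.5 times in every alternative. Same-numbered libraries did not deviate together (r between -0.12 and 0.088, and 3 of 16 libraries correlated best with their own number), so the numbers were not taken as pairs. With the replicate block, 3 members instead of 5 differed between the lines, and 4 in place of 5 were called in SUM159PT, where CTGF was at -0.77 (edgeR adjusted p = 0.0554). Leaving out 1 library gave between 3 and 5 members for the difference. The block also put the LATS2 difference at 0.0025. With total-count scaling TEAD4 in SUM159PT was at -0.045, the WWTR1 difference at -0.014, the CYR61 difference at -0.024 and the AXL difference at -0.33 (edgeR adjusted p = 0.0376). AMOTL2 in SUM159PT was at 0.0010 without a filter and 0.031 in the joint fit. Without 1 library it ranged between -0.082 and 0.025, ANKRD1 in MDA-MB-231 between -0.23 and 0.0034, the YAP1 difference between -0.051 and 0.085 and the LATS2 difference between -0.28 and 0.14. The cause of these moves was not tested. Total counts moved the share of called genes that were higher in SUM159PT to 25.0% against 48.2%, and for the difference to 33.0% against 63.5%. TMM within each line, added after seeing the data, gave 49.0% for the difference, and the joint fit gave 37.8% against 47.6% in MDA-MB-231.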

Other observations

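Neighbouring programmes that share genes with the YAP and TAZ response were also measured. Of 9 tested targets of MRTF and SRF, actin-regulated factors, 4 rose and 1 fell in SUM159PT, beside 17.7% higher and 19% lower over all tested genes. The median log2 fold change was 0.21 beside -0.03. FLNA (0.51), the actin crosslinker filamin A, SRF (0.45) itself and FHL2 (0.39) rose there, and MYL9 (-0.53), a myosin light chain, fell. Scaled to total counts, 2 rose and 2 fell with a median of 0.04 beside -0.20. Of all genes called under that scaling, 25.0% were higher. In MDA-MB-231, 1 rose and 3 fell, beside 24.9% higher and 27.5% lower over all tested genes, with a median of 0.12 beside 0.00: MYL9 (-1.24), FHL2 (-0.74) and TPM1 (-0.47), a tropomyosin, fell and VCL (0.22), vinculin, rose. The VCL groups overlapped (edgeR adjusted p = 0.0476). With total-count scaling and in the joint fit, no target of MRTF and SRF was called higher in MDA-MB-231. FHL2 had 77.5, 75.6, 73.6 and 76.4 CPM in SUM159PT with siYES1, against 46.2, 62.5, 60.2 and 62.7 CPM with siNS. In MDA-MB-231 it had 46.0, 40.01, 46.2 and 43.7 CPM with siYES1, against 69.4, 77.3, 70.1 and 75.7 CPM with siNS. Its effect differed between the lines by 1.22 (edgeR adjusted p = 6e-07).

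Of 6 tested TGF-beta targets, 2 rose and 2 fell in SUM159PT, where 36.8% of all tested genes were called (median -0.11 beside -0.03). In MDA-MB-231, where 52.4% were called, 1 rose and 3 fell (median -0.24 beside 0.00). PMEPA1 (-0.42) and SKIL (-0.36) fell there, and TGFBI (0.35) rose in SUM159PT. LTBP2, a matrix protein, fell in both lines (-1.79 in SUM159PT and -1.198 in MDA-MB-231). SMAD7, an inhibitor of the pathway, fell in SUM159PT (-0.44 ± 0.14, edgeR adjusted p = 0.0261) and rose in MDA-MB-231 (0.32 ± 0.13, 0.0468). The SMAD7 groups overlapped in both lines. With total-count scaling and in the joint fit, no target of this list was called higher in MDA-MB-231.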
